A study of Homo sapiens with 6 samples.

Results

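The genes described here are the ligands, receptors, inhibitors and targets of Wnt signalling, measured in the human embryonic stem cell line H1 (an established line) and compared between laminin coatings. A list of 45 genes was matched by symbol to the gene identifiers of the count table, and all 45 matched 1 identifier. Of these, 32 had 10 or more counts in at least 3 of the 6 libraries and are called measured, against 17724 of 60499 genes in the whole table. The cells had been grown in NutriStem medium for 4 days on recombinant laminin-521 alone (LN-521), or on a coating that held laminin-221 as well (LN-521+LN-221, called the mixed coating), with 3 wells of each. Laminin-521 was thus present under all cells. Total RNA of each well was sequenced as 1 library. All wells held the same cell line, so p-values measure the spread between wells.

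Wnt proteins are secreted, lipid-modified ligands that bind Frizzled receptors together with the co-receptors LRP5 or LRP6. In the canonical branch, binding stops a destruction complex built on AXIN and APC from degrading beta-catenin, which then enters the nucleus and activates genes with TCF and LEF factors. Extracellular proteins of the SFRP and DKK families hold the signal down from outside the cell. In human pluripotent cells a low level of Wnt activity goes with self-renewal, and a strong signal drives cells toward primitive streak and mesoderm.

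Total counts ranged from 20606450 to 26836686 per library. All 6 libraries carry the same sequencing batch number in the deposited sample sheet, which leaves no batches to compare. The 10 markers of undifferentiated pluripotent cells were all measured, and their summed TPM (a level that takes transcript length and the library's total into account) ranged from 3265 to 3667 with LN-521 alone and from 3193 to 3441 with the mixed coating. Of these markers, 4 of 10 had an edgeR adjusted p under 0.05, where 2.53% of all genes tested did. POU5F1, NANOG and TDGF1 fell and LIN28A rose, with log2 fold changes of -0.36, -0.73, -0.65 and 0.23 (edgeR). Counts of POU5F1, NANOG and TDGF1 were not whole in 6, 6 and 5 libraries, which leaves their split of reads with other genes uncertain. Among the neural ectoderm markers DCX fell (-0.43), 1 of 3 tested. The part of these markers in the results was not tested. Summed TPM was 3.18 to 4.55 and 3.34 to 3.60 for 8 primitive streak and mesoderm markers, 0.14 to 0.32 and 0.12 to 0.33 for 6 definitive endoderm markers, 1.68 to 2.48 and 1.53 to 2.24 for 8 neural ectoderm markers, and 2.60 to 4.05 and 3.09 to 4.44 for 6 neural crest markers, with LN-521 alone and with the mixed coating, in that order. It was 13.6 to 15.5 and 12.7 to 14.2 for 8 trophoblast and amnion markers, and 79.3 to 93.0 and 83.2 to 99.1 for 6 fibroblast markers, of which LUM had 0 counts in every library. The ranges of the coatings overlapped for each of the 7 lists. In bulk RNA, fewer cells of a type and less RNA per cell cannot be told apart.

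The measured genes covered a wide range of levels. SFRP1, a secreted inhibitor, and LGR4, a receptor for R-spondins, had the highest TPM, with means over the 6 libraries of 89.4 and 84.6, and their libraries overlapped. LGR4 was the higher of them with LN-521 alone (73.1 against 68.2 TPM) and SFRP1 with the mixed coating (110.5 against 96.1 TPM). FZD7 followed at 60.3 TPM, FZD5 at 35.2 and LRP6 at 26.4. Within each coating the wells of LGR4 lay above those of FZD7, and these above those of FZD5. FZD5 and LRP6 overlapped with LN-521 alone and not with the mixed coating, and all wells of LRP6 lay above those of TCF7L2, the next gene at 16.4 TPM. The 15 ligands together summed to 4.66, 4.64 and 3.47 TPM with LN-521 alone and to 5.63, 6.02 and 5.85 TPM with the mixed coating, so that SFRP1 alone was present at a higher level than all ligands in each library. The share of TPM taken by 7SL RNA, a small RNA outside the pathway, ranged from 30.1% to 37.3% with LN-521 alone and from 31.1% to 32.9% with the mixed coating and scales every TPM of a library, so differences of single genes between coatings are given as CPM (counts relative to a library size scaled by TMM).

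**Figure D1:**
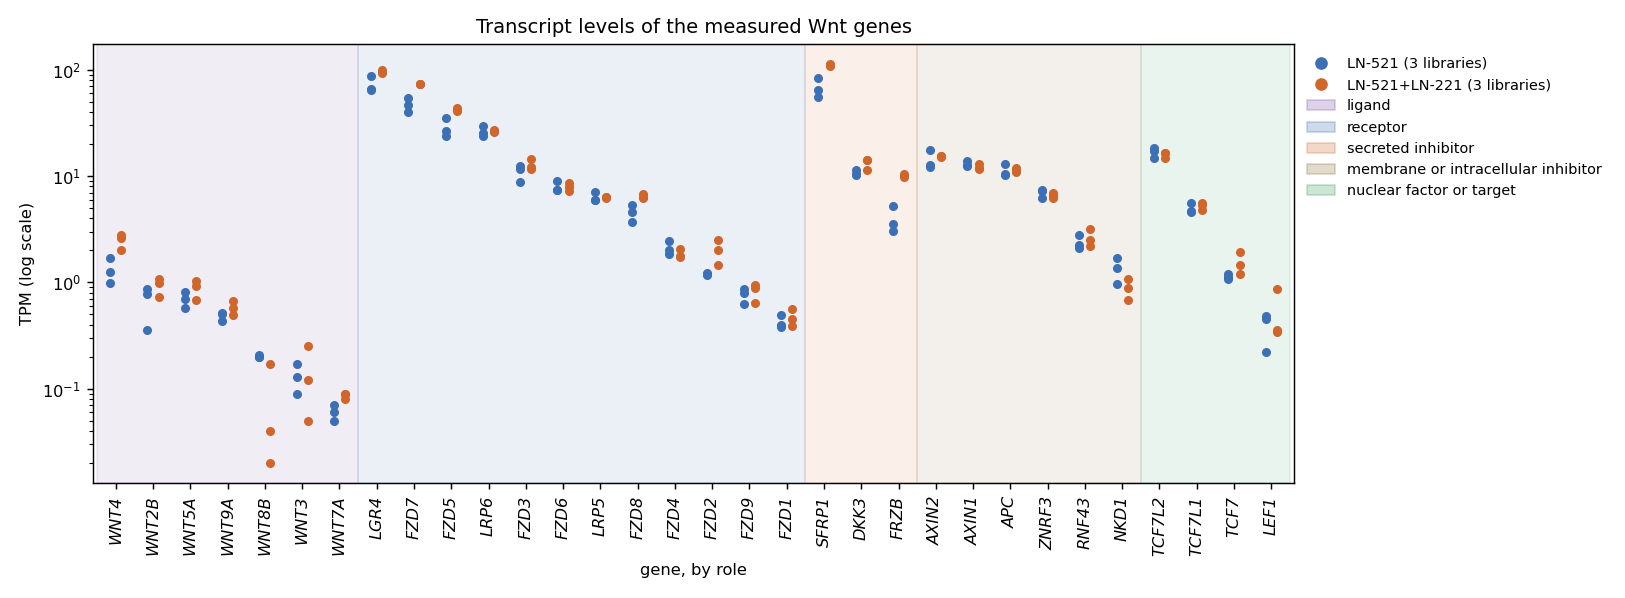
TPM of the 32 measured genes on a logarithmic axis, grouped by role, with 1 point per library and the coatings in 2 colours. The ligands lie at the low end, with WNT4 as the highest at a mean of 1.90 TPM, while LGR4, FZD7 and SFRP1 lie above 40 TPM in all libraries.

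Against this background, 7 genes rose on LN-521+LN-221 and none fell: WNT4, FZD5, FZD7, FZD8, LGR4, SFRP1 and FRZB (edgeR quasi-likelihood test, Benjamini-Hochberg adjusted p under 0.05 over 17608 genes). These were 7 of 31 genes tested, or 22.6%, where 2.53% of all genes tested passed in either direction, 1.4% higher and 1.14% lower. An unadjusted p under 0.05 was reached by 15 of the 31 genes, where 14.5% of all genes reached it. Of these 15, 10 were higher and 5 lower (FZD4, ZNRF3, NKD1, TCF7L2 and WNT8B, the last measured only through the LN-521 wells), and DESeq2 also called none lower. Over the 31 genes the log2 fold change had a median of 0.08, against -0.0011 over all genes. When 1 library was left out the median ranged from 0.046 (without LN-521 replicate 3) to 0.19 (without LN-521+LN-221 replicate 3). These fits tested 30 to 33 of the listed genes, so the set differed between them. WNT7A, with 6 to 10 counts per library, was measured but did not reach the level needed for the test. CPM did not overlap between the coatings for 13 of the 31 genes, where 19.9% of all genes did not overlap. Of these 13, 9 were higher on LN-521+LN-221 and 4 lower (WNT8B, NKD1, AXIN1 and TCF7L2, of which WNT8B again was measured only through the LN-521 wells), where 10.2% of all genes were higher without overlap and 9.68% lower.

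**Figure D2:**
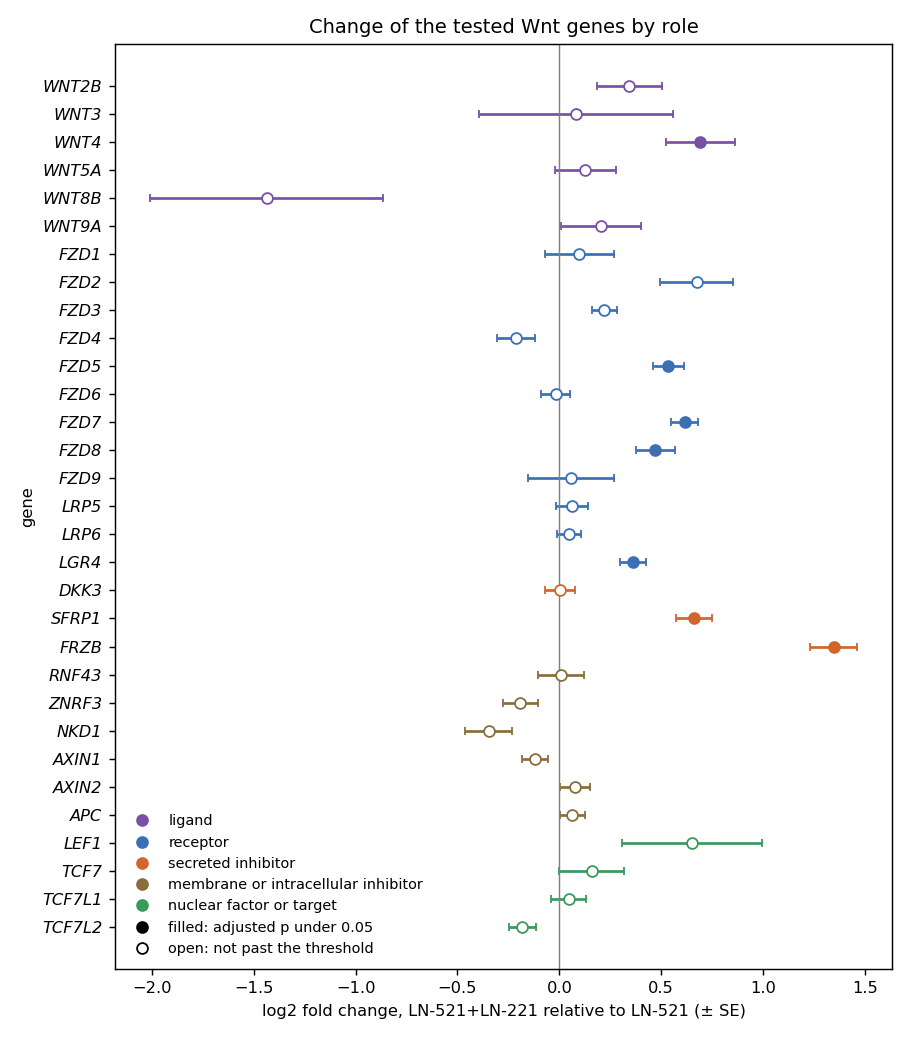
Log2 fold change of each tested gene, the mixed coating over LN-521 alone, with its standard error as a bar, coloured by role. Filled points are the 7 genes with an adjusted p under 0.05, all to the right of 0 between 0.36 (LGR4) and 1.35 (FRZB), and open points are the other 24.

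Ligands were scarce on both coatings. WNT4, which is best known for its part in kidney and female reproductive tract development, was the ligand with the highest TPM and the one that passed the test. Its CPM was 3.22, 4.62 and 3.33 with LN-521 alone and 5.10, 6.996 and 5.997 with the mixed coating (replicates 1 to 3). Every well with laminin-221 lay above every well without it, although the lowest of the former was only 1.1 times the highest of the latter. The change was 1.61-fold, a log2 fold change of 0.69 ± 0.17 (SE; adjusted p = 0.0370, edgeR). It did not pass without LN-521 replicate 3 (edgeR adjusted p = 0.204), LN-521+LN-221 replicate 2 (0.254) or LN-521+LN-221 replicate 3 (0.1405), and a noncoding transcript on the opposite strand, AL445253.1, overlaps its exons.

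The other 5 ligands tested did not pass, so 1 of 6 passed, where 2.53% of all genes did. WNT2B was 4.21 ± 0.758 CPM with LN-521 alone and 5.35 ± 0.578 CPM with the mixed coating (SD, n = 3 each; edgeR adjusted p = 0.333), and WNT5A, a ligand of the non-canonical branch, 4.23 ± 0.532 and 4.62 ± 0.309 CPM (SD, n = 3 each; edgeR adjusted p = 0.769). WNT9A was 2.35 ± 0.282 and 2.71 ± 0.466 CPM (SD, n = 3 each; edgeR adjusted p = 0.696). WNT3, a canonical ligand needed for primitive streak formation, had 5 to 22 counts per library, and its log2 fold change of 0.08 had a 95% interval from -0.92 to 1.09. WNT8B had 10, 14 and 13 counts with LN-521 alone and 2, 9 and 1 with the mixed coating, so it counts as measured only through the LN-521 wells (log2 fold change -1.44 ± 0.57 SE, edgeR adjusted p = 0.242). In the fits without 1 library that tested it, its log2 fold change was between -2.78 and -0.95. WNT1, WNT3A, WNT5B, WNT6, WNT7B, WNT8A, WNT10B and WNT11 were not measured, with at most 12 counts in any library.

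Of the 12 receptors and co-receptors tested, 4 rose (FZD5, FZD7, FZD8 and LGR4), or 33.3%, against 1.4% of all genes. FZD7, the Frizzled receptor with the highest level here and one described as a main Wnt receptor of human pluripotent cells, had 231, 234 and 192 CPM with LN-521 alone and 322, 334 and 348 CPM with the mixed coating. The lowest well with laminin-221 was 1.38 times the highest without it. The change was 1.53-fold, or 0.61 ± 0.07 on the log2 scale (SE; adjusted p = 3.84e-05, edgeR). It passed in each of the 6 fits that left out 1 library, between 0.53 and 0.67. Its counts were not whole in 2 libraries, which leaves its split of reads with other genes uncertain.

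FZD5 had 265, 235 and 201 CPM with LN-521 alone and 336, 339 and 342 CPM with the mixed coating. The wells with laminin-221 differed from each other by far less than the wells without it, with coefficients of variation of 0.895% and 13.7%. FZD5 rose 1.45-fold, by 0.53 ± 0.08 on the log2 scale (SE; adjusted p = 0.00112, edgeR), and did not pass without LN-521 replicate 2 (0.54, edgeR adjusted p = 0.0626). FZD8, a close relative of FZD5, had a lower level, with 23.8, 24.3 and 18.7 CPM with LN-521 alone and 28.9, 32.4 and 31.2 CPM with the mixed coating. The groups were again apart, and FZD8 rose 1.39-fold, by 0.47 ± 0.10 on the log2 scale (SE; adjusted p = 0.0101, edgeR). FZD8 did not pass without LN-521 replicate 3 (0.36, edgeR adjusted p = 0.0836), LN-521+LN-221 replicate 2 (edgeR adjusted p = 0.0963) or LN-521+LN-221 replicate 3 (edgeR adjusted p = 0.0644).

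Of the other Frizzled genes, FZD3 and FZD2 lay close to the threshold. FZD3, known for its role in axon guidance and planar cell polarity, had 117, 103 and 102 CPM with LN-521 alone and 125, 127 and 123 CPM with the mixed coating, with a log2 fold change of 0.22 ± 0.06 (SE; adjusted p = 0.0717, edgeR). FZD2 had 2.74, 3.20 and 2.97 CPM with LN-521 alone and 5.78, 4.89 and 3.63 CPM with the mixed coating, with a log2 fold change of 0.67 ± 0.18 (SE; adjusted p = 0.0584, edgeR). Neither gene overlapped between the coatings. FZD3 passed with DESeq2 (DESeq2 adjusted p = 0.0376) and without LN-521 replicate 1 (0.29, edgeR adjusted p = 0.00109), and FZD2 without LN-521+LN-221 replicate 3 (0.84, edgeR adjusted p = 0.0285). FZD4 was 19.2 ± 1.58 and 16.5 ± 1.13 CPM (SD, n = 3 each; edgeR adjusted p = 0.296), and FZD6 was 32.8 ± 1.13 and 32.4 ± 1.14 CPM (SD, n = 3 each; edgeR adjusted p = 0.944), with a 95% interval of the log2 fold change from -0.17 to 0.13. FZD1, at 3.64 ± 0.241 and 3.90 ± 0.710 CPM, and FZD9, at 2.09 ± 0.304 and 2.19 ± 0.357 CPM (SD, n = 3 each), overlapped between the coatings (edgeR adjusted p = 0.846 and 0.934). FZD10 was not measured, with 2 to 10 counts per library.

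The Frizzled transcripts were also added up per library on the TPM scale. These sums carry the scaling by 7SL RNA, and shares of a sum do not. The sum was 122, 100.7 and 88.0 TPM with LN-521 alone and 150.3, 149.7 and 144 TPM with the mixed coating. FZD7 and FZD5 together held 72.1% to 73.6% of this sum with LN-521 alone and 77.0% to 79.1% with the mixed coating. The share of FZD7 went from 45.4% ± 0.698 to 49.7% ± 1.07 (SD, n = 3 each), that of FZD6 from 7.77% ± 0.581 to 5.36% ± 0.386, and that of FZD4 from 2.04% ± 0.0663 to 1.26% ± 0.117 (SD, n = 3 each). The TPM of FZD6 itself was 7.99 ± 0.933 and 7.95 ± 0.722 (SD, n = 3 each), so its share fell as the sum rose. The share of FZD8 was 4.41% ± 0.164 and 4.38% ± 0.153 (SD, n = 3 each). With 3 wells against 3, a two-sided exact permutation test of a share cannot give a p below 0.1, and none is given.

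**Figure D3:**
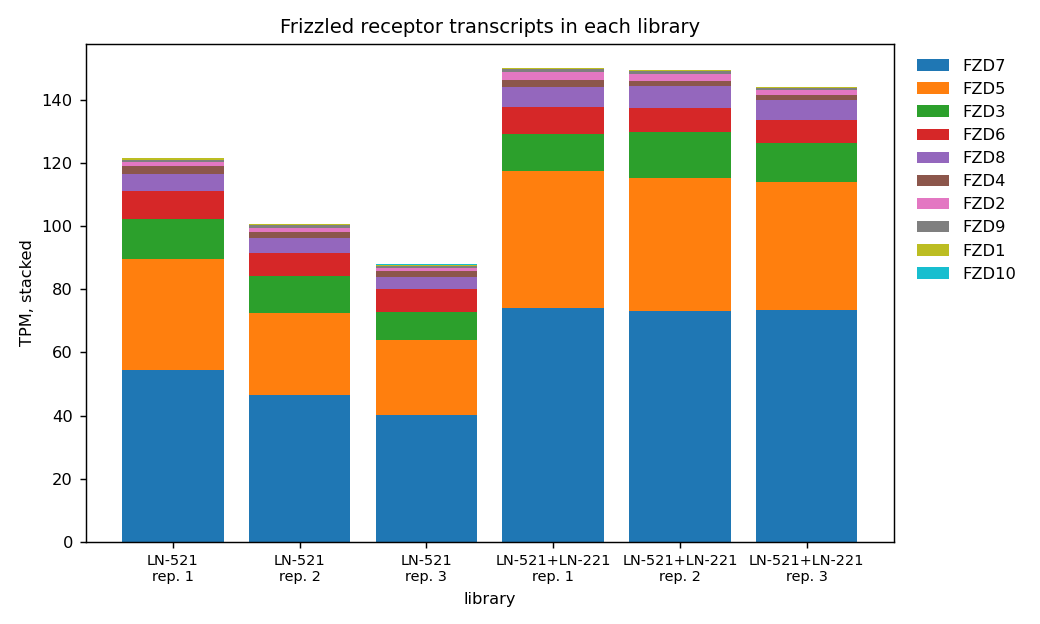
Stacked TPM of the 10 Frizzled genes in each of the 6 libraries. The height of a bar is the Frizzled sum, 88.0 to 122 TPM with LN-521 alone and 144 to 150.3 TPM with the mixed coating, and FZD7 and FZD5 fill most of every bar.

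Neither co-receptor of the Frizzled proteins passed the test. LRP6 was 217 ± 15.7 CPM with LN-521 alone and 224 ± 4.73 CPM with the mixed coating (SD, n = 3 each), 0.05 on the log2 scale with a 95% interval from -0.07 to 0.17 (edgeR adjusted p = 0.779). LRP5 was 35.3 ± 3.55 and 36.8 ± 0.186 CPM (SD, n = 3 each), 0.06 on the log2 scale with an interval from -0.10 to 0.23 (edgeR adjusted p = 0.791).

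LGR4, which binds R-spondins and thereby keeps Frizzled receptors on the cell surface, had 442, 376 and 374 CPM with LN-521 alone and 506, 528 and 495 CPM with the mixed coating. It rose 1.28-fold, by 0.36 ± 0.06 on the log2 scale (SE; adjusted p = 0.00305, edgeR), and passed in all 6 fits that left out 1 library, with adjusted p-values up to 0.0470. LGR5, its relative and a marker of Wnt-dependent stem cells in several adult tissues, had 0 to 4 counts per library and was not measured.

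Of the 3 secreted inhibitors tested, 2 rose, where 1.4% of all genes did. They were FRZB and SFRP1, both of the Frizzled-related family. FRZB, a soluble protein with a Frizzled-like domain that binds Wnt ligands outside the cell, had the largest change of the genes that passed. Its CPM was 17.95, 14.5 and 11.8 with LN-521 alone and 34.9, 38.6 and 38.7 with the mixed coating, and the lowest well with laminin-221 was 1.94 times the highest without it. The change was 2.54-fold, or 1.35 ± 0.12 on the log2 scale (SE; adjusted p = 8.23e-06, edgeR), and between 1.21 and 1.505 when 1 library was left out.

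SFRP1, of the same family, had 410, 382 and 306 CPM with LN-521 alone and 565, 578 and 590.5 CPM with the mixed coating. The groups did not overlap, and SFRP1 rose 1.58-fold, by 0.66 ± 0.09 on the log2 scale (SE; adjusted p = 0.00171, edgeR). Without LN-521 replicate 2 it did not pass (0.70, edgeR adjusted p = 0.0723). DKK3, a divergent member of the Dickkopf family, was 27.1 ± 0.652 and 27.1 ± 1.04 CPM (SD, n = 3 each; edgeR adjusted p = 0.994), although its deposited TPM was 10.7 ± 0.624 and 13.2 ± 1.56 (SD, n = 3 each). DKK1, an inhibitor that binds LRP5 and LRP6, had 4 to 10 counts per library and was not measured. DKK4 had 0 counts in every library, which allows up to 0.113 to 0.144 CPM by a limit of 3 counts per library (counting error only).

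**Figure D4:**
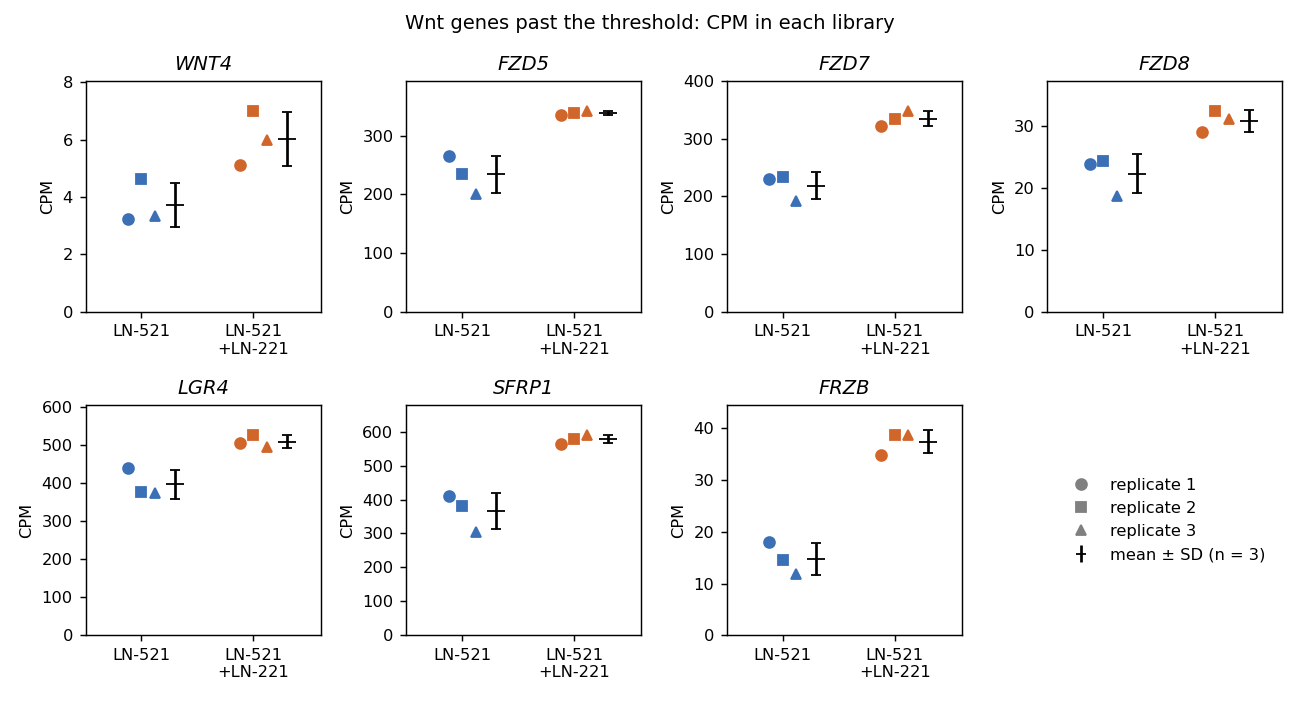
CPM of the 7 genes that rose, with 1 symbol per replicate number and the mean ± SD beside each group of 3 wells, on axes that start at 0. In each panel all wells on LN-521+LN-221 lie above all wells on LN-521, and LN-521 replicate 3 is the lowest well in 6 of the 7 panels.

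The wells themselves differed within a coating. On LN-521, replicate 3 was the lowest well for 6 of the 7 genes that rose (all but WNT4), and replicate 1 was the highest for 4 (FZD5, LGR4, SFRP1 and FRZB). The coefficient of variation between wells ranged from 9.71% to 20.9% with LN-521 alone and from 0.895% to 15.7% with the mixed coating. Without LN-521 replicate 3, FZD5, FZD7, LGR4, SFRP1 and FRZB passed and WNT4 and FZD8 did not. In the GENCODE annotation of GRCh38, FZD7 lies on chromosome 2 from 202034587 to 202038445, FZD5 on chromosome 2 from 207762586 to 207769563 and FRZB on chromosome 2 from 182833275 to 182867162. FZD8 lies on chromosome 10 from 35638249 to 35642278, LGR4 on chromosome 11 from 27365961 to 27472775, SFRP1 on chromosome 8 from 41261958 to 41309497 and WNT4 on chromosome 1 from 22117305 to 22143969.

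Of the inhibitors that act at the membrane or inside the cell, 0 of 6 passed (edgeR; 0 with DESeq2), where 2.53% of all genes did, and 2 had an unadjusted p under 0.05, where 14.5% of all genes did. Whether they differed from the secreted inhibitors was not tested. AXIN1, a scaffold of the destruction complex, was 52.2 ± 2.24 and 48.1 ± 1.12 CPM (SD, n = 3 each), with no overlap between the coatings (edgeR adjusted p = 0.424). APC, its partner, was 81.5 ± 5.32 and 85.2 ± 2.87 CPM (SD, n = 3 each; edgeR adjusted p = 0.705). RNF43, a ubiquitin ligase that removes Frizzled receptors from the membrane, was 12.03 ± 1.74 and 12.1 ± 0.640 CPM (SD, n = 3 each; edgeR adjusted p = 0.987). ZNRF3, the related ligase, had 29.2, 36.3 and 33.6 CPM with LN-521 alone and 27.9, 30.7 and 28.3 CPM with the mixed coating, so the groups overlapped (-0.19 ± 0.09 SE on the log2 scale, edgeR adjusted p = 0.308).

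Genes known to be switched on by beta-catenin were read as a group of their own, which cuts across these roles. Of 10 such genes on the list, AXIN2, RNF43, ZNRF3, NKD1, LEF1 and TCF7 were tested, and 0 of the 6 passed (edgeR; 0 with DESeq2), where 2.53% of all genes did. ZNRF3 and NKD1 had an unadjusted p under 0.05, 2 of 6 where 14.5% of all genes did. AXIN2, a feedback inhibitor widely used as a readout of canonical Wnt activity, had 53.0, 47.9 and 45.6 CPM with LN-521 alone and 47.7, 53.6 and 52.8 CPM with the mixed coating. The wells overlapped, and the log2 fold change of 0.08 ± 0.07 (SE; adjusted p = 0.704, edgeR) had a 95% interval from -0.08 to 0.23. NKD1, a feedback inhibitor that binds Dishevelled, had 10.8, 11.99 and 10.6 CPM with LN-521 alone and 9.68, 9.15 and 7.48 CPM with the mixed coating. All wells with laminin-221 lay below all wells without it, and the log2 fold change was -0.35 ± 0.12 (SE; adjusted p = 0.152, edgeR). ZNRF3 passed, as a lower gene, only in the fit without LN-521 replicate 1 (-0.27, edgeR adjusted p = 0.0334) among the alternatives run. SP5, DKK1, LGR5 and DKK4 were not measured, SP5 with 4 to 15 counts per library.

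The TCF and LEF factors carry the signal to DNA, and 0 of 4 passed (edgeR; 0 with DESeq2), with 1 at an unadjusted p under 0.05, against the same 2.53% and 14.5% of all genes. That gene, TCF7L2, was 49.6 ± 2.20 and 43.7 ± 1.51 CPM (SD, n = 3 each) and did not overlap between the coatings (-0.18 ± 0.07 SE on the log2 scale, edgeR adjusted p = 0.190). TCF7L1, a repressor of Wnt targets in pluripotent cells, was 16.0 ± 0.256 and 16.6 ± 0.584 CPM (SD, n = 3 each; edgeR adjusted p = 0.864). TCF7 was 3.83 ± 0.0524 and 4.28 ± 0.712 CPM (SD, n = 3 each; edgeR adjusted p = 0.717). LEF1, with 11 to 28 counts per library, had a log2 fold change of 0.65 with a 95% interval from -0.07 to 1.37 (edgeR adjusted p = 0.412).

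The sequence before each gene's start was searched for the core letters bound by TCF and LEF factors: CTTTGAA, its variant CTTTGAT, also CTTTGTA, and last CTTTGTT, on both strands, in the 250 bases before the RefSeq gene start (GRCh38.p14). These occurred in 4199 of 35116 genes with such a window, or 12%. Of 29 genes on the list with a window, 2 held the letters: SP5, with 3 matches, and DKK1, with 2. No match was found for the 5 genes that rose and had a window (WNT4, FZD5, FZD8, LGR4 and FRZB), nor for the other 17 measured genes with a window (16 that did not pass the test, and WNT7A, which was not tested), among them the known targets RNF43, LEF1 and TCF7. Of these 22 windows, those of WNT3, WNT4, WNT5A, FRZB, LEF1 and TCF7 lie inside the gene as GENCODE annotates it, and those of WNT7A, FZD1 and RNF43 overlap it in part. The windows of SP5 and DKK1, with the matches in capitals, and those of FZD8 and LGR4, receptors that rose and hold no match, read as follows, 5′ to 3′ in the direction of transcription. SP5 and DKK1 were themselves too scarce to measure. A match is a description of these letters and not a bound site.
SP5 (chr2:170715087-170715336, + strand): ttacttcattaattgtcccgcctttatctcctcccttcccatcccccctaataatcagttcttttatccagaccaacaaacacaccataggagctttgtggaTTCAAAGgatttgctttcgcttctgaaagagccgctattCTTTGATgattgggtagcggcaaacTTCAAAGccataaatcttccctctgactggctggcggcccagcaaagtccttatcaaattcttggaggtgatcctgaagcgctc
DKK1 (chr10:52314031-52314280, + strand): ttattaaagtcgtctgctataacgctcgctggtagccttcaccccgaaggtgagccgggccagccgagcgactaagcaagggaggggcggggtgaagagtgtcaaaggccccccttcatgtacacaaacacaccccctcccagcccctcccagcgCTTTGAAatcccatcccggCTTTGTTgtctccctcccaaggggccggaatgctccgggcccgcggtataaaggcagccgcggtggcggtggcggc
FZD8 (chr10:35642297-35642546, - strand): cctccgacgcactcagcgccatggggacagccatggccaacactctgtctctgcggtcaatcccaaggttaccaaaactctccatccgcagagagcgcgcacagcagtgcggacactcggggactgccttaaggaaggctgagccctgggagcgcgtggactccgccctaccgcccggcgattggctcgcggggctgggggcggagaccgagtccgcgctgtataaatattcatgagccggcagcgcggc
LGR4 (chr11:27472791-27473040, - strand): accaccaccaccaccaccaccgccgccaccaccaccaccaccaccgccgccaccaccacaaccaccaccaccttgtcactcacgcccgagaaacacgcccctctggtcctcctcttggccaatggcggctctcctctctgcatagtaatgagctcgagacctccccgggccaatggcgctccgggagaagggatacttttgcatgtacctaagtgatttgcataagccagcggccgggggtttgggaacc

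The matches in SP5 began 148, 109 and 84 bases before the gene start, the first and the third in reverse complement, and those in DKK1 began 95 and 76 bases before it.

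Outside these 45 genes, a second list of 75 genes of the pathway was examined. Of these, 60 were tested, 2 rose and 3 fell, or 8.33% against 2.53% of all genes, with a median log2 fold change of -0.02. With the GC correction 10 passed, where 5.3% of all genes did, and leaving out 1 library gave 2 (without LN-521+LN-221 replicate 3) to 10 (without LN-521 replicate 1). ROR1, a receptor of the non-canonical branch, had 132, 119 and 124 CPM with LN-521 alone and 157, 162 and 153 CPM with the mixed coating. It rose by 0.33 ± 0.06 on the log2 scale (SE; adjusted p = 0.00252, edgeR). PRICKLE1, a planar cell polarity protein, went the other way, with 20.56, 27.7 and 31.2 CPM with LN-521 alone and 16.1, 17.0 and 14.4 CPM with the mixed coating (-0.75 ± 0.13 SE, edgeR adjusted p = 0.00703). It did not pass without LN-521 replicate 2 (edgeR adjusted p = 0.117) or LN-521+LN-221 replicate 3 (edgeR adjusted p = 0.0530).

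SFRP2, a relative of SFRP1 and FRZB, fell while both of these rose. Its CPM was 49.9, 52.0 and 56.1 with LN-521 alone and 45.3, 43.2 and 42.2 with the mixed coating (-0.27 ± 0.07 SE on the log2 scale, edgeR adjusted p = 0.0382). Among the summed TPM of SFRP1, SFRP2, SFRP4, SFRP5 and FRZB, the share of SFRP2 was 23.3% ± 3.86 with LN-521 alone and 13.3% ± 0.621 with the mixed coating, and that of FRZB was 3.98% ± 0.461 and 7.08% ± 0.345 (SD, n = 3 each). The fall of SFRP2 did not pass without LN-521 replicate 3 or without any 1 of the LN-521+LN-221 wells (edgeR adjusted p between 0.0992 and 0.241). SFRP5, also tested, was 6.55 ± 0.656 and 7.38 ± 0.606 CPM (SD, n = 3 each) and overlapped between the coatings (edgeR adjusted p = 0.597).

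CCND1 and MYC, genes of cell cycle entry and growth that are described as Wnt targets in other cells, changed in opposite directions. CCND1 had 76.4, 70.6 and 61.5 CPM with LN-521 alone and 103, 114 and 114 CPM with the mixed coating, and rose by 0.67 ± 0.07 on the log2 scale (SE; adjusted p = 3.68e-05, edgeR). MYC had 26.4, 33.9 and 40.5 CPM with LN-521 alone and 23.5, 20.05 and 23.1 CPM with the mixed coating, and fell by 0.60 ± 0.14 on the log2 scale (SE; adjusted p = 0.0498, edgeR). MYC sat at the threshold: it did not pass with RLE size factors (edgeR adjusted p = 0.0513), with limma on log2 CPM or TPM, with the GC correction, or in the 5 fits that left out a library other than LN-521 replicate 1 (edgeR adjusted p between 0.0913 and 0.315). The direct transducers, among them CTNNB1, GSK3B and the Dishevelled genes, gave 0 of 16 past the threshold (edgeR; 0 with DESeq2). An unadjusted p under 0.05 was reached by 3. CTNNB1 and APC2 were higher (log2 fold changes of 0.13 and 0.32) and CSNK1E was lower (-0.18). Of these 3, CTNNB1 alone did not overlap between the coatings. In other edgeR fits APC2 passed with the GC correction and without LN-521 replicate 2, and CSNK1E passed without LN-521 replicate 1. The nuclear co-factors, which bind beta-catenin or repress its targets, gave 0 of 10 (edgeR), with 5 at an unadjusted p under 0.05. With DESeq2 TLE1 passed as lower and TLE3 as higher (edgeR log2 fold changes of -0.22 and 0.22). In other edgeR fits these genes and CTBP2 (0.15) passed with the GC correction and without LN-521 replicate 1, among others. None of them passed without LN-521 replicate 3 or without any 1 of the LN-521+LN-221 wells. Genes of ligand secretion and the R-spondins gave 0 of 4 (edgeR; 0 with DESeq2), with 1 at an unadjusted p under 0.05. Of the other targets on the second list, 2 of 5 passed (CCND1 and MYC), and 4 of 5 had an unadjusted p under 0.05. Among these, BAMBI, a pseudoreceptor of the TGF-beta pathway, had 18.6, 16.2 and 14.97 CPM with LN-521 alone and 13.4, 13.5 and 13.3 CPM with the mixed coating (-0.31 ± 0.10 SE on the log2 scale, edgeR adjusted p = 0.131). MSX2, a homeobox factor, had 13, 16 and 17 counts with LN-521 alone and 7, 7 and 9 with the mixed coating, so it was measured only through the LN-521 wells (-0.83 ± 0.38 SE, edgeR adjusted p = 0.321). Neither overlapped between the coatings. Each of these 4 counts stands against 2.53% of all genes past the threshold and 14.5% at an unadjusted p under 0.05.

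Fits on the deposited TPM, which changed the test, the filter and the unit together, called fewer genes. They tested 23 of the 45 genes. With limma on log2(TPM + 1) FRZB alone of these passed (1.197, limma adjusted p = 0.0381), where 0.229% of all genes did. With log2(TPM + 0.1) none of the 23 passed, where 0.111% of all genes did. With log2(TPM + 1) the log2 differences of the 7 genes that rose with edgeR were 0.60 for WNT4, 0.57 for FZD5, 0.65 for FZD7, 0.44 for FZD8, 0.40 for LGR4, 0.71 for SFRP1 and the FRZB value above. For other genes they differed from the values on counts by over 1.5 times, among them 0.28 for DKK3, 0.43 for FZD2, -0.12 for FZD4, -0.076 for ZNRF3, -0.067 for TCF7L2 and -0.47 for PRICKLE1. Exons of 9 measured genes overlap a gene on the opposite strand (FZD4, FZD6, LEF1, NKD1, RNF43, TCF7, TCF7L2, WNT2B and WNT4) and those of 4 a gene on the same strand (APC, AXIN2, FZD8 and RNF43), and their values are uncertain. For the former, the sources used here do not give how strand was treated when reads were counted, and for the latter, strand does not separate the reads. Counts that were not whole, as arise where reads are divided between genes, occurred for FZD2 and FZD7 in 2 libraries each, for APC in 1 and for ZNRF3 in all 6.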

How the data were processed

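Total RNA of 6 wells of H1 cells was sequenced from stranded libraries, per the labels' protocols. The submitters' processing notes name cutadapt, STAR 2.5.2b, RSEM 1.2.31 and hg38, without their roles. The authors deposited estimated counts per gene (6.08% to 6.67% of values per library are not whole) and TPM, which are scaled for transcript length to the same total in each library. The annotation and the use of strand in counting are not given in the sources used here. Symbols matched 93.1% of the 60499 identifiers, and gene types, GC content and exon overlaps came from GENCODE release 29.

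Estimated counts were rounded, filtered with filterByExpr (minimum count 10), scaled by TMM and compared with edgeR 4.0.16 (R 4.3.3; robust quasi-likelihood fit, no replicate block), with Benjamini-Hochberg adjustment over 17608 genes and a threshold of 0.05. Fold changes give the mixed coating over LN-521 alone, and the SE is the absolute log2 fold change divided by the square root of F. The 95% intervals use the moderated degrees of freedom. CPM are rounded counts over TMM-scaled library sizes. The scripts were tested on simulated counts.

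The genes, lists and tests were chosen with earlier results of these data known. Every measured gene could be named, and genes past the threshold, with all wells' values, had to be. FZD2, FZD3, ZNRF3, AXIN2 and NKD1 were given well by well, TLE1, TLE3, CTBP2, SFRP5, BAMBI, MSX2 and the transducers were named, and the promoters were chosen, after their values were seen. Alternatives were RLE size factors, library size alone, no filter beyond 1 count, 10 counts in 3 libraries, DESeq2 1.42.0, a fit without 1558 genes of mitochondrial origin or of ribosomal, 7SK or 7SL RNA, limma 3.58.1 (with trend on log2 CPM, and on TPM with 1 or 0.1 added before the log2, keeping genes that reached 1 TPM in 3 libraries), lowess corrections (span 0.3) for transcript GC content and length, the replicate number as a block, and leaving out each library.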

Additional observations from a re-analysis of the deposited data

How the results depend on the processing

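The 7 genes that rose kept their direction in every alternative that tested them. The fits on counts of all 6 libraries tested 31 listed genes, but 32 with 10 counts in 3 libraries and 44 without a filter. With RLE, library size alone, 10 counts in 3 libraries, no abundant RNA genes, limma on log2 CPM or the length correction, 7 passed. In these fits 2.39% to 2.74% of all genes passed. DESeq2 gave 8, where 2.99% of all genes passed. No filter (1.98% of all genes) and the GC correction (5.3%) each gave 9, both adding FZD2 and FZD3. On TPM, 23 listed genes were tested. Limma on log2(TPM + 1) called 1 of them, 0 of the second list and 33 of all 14428 genes tested (0.229%). On log2(TPM + 0.1) it called 0, 0 and 16 (0.111%), with a median of 0.14 over the listed genes tested. No filter gave 718 genes, the GC correction 933 (10 of the second list) and the block with the GC correction 1084 (9 of the second list, with APC2 and without CCND1 at 0.73, adjusted p = 0.108 by edgeR, and 8 of the first, without SFRP1). Deviations from group means correlated at 0.0473, -0.0223 and 0.0090 between same-numbered wells (replicates 1 to 3). With wells of other numbers the mean correlations were -0.023, 0.0105 and -0.00455. These values are taken over all genes, so they cannot tell whether wells were paired for some genes. With the replicate block 646 genes passed, 9 of the first list, adding FZD2 and FZD3, and 7 of the second.

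Leaving out each library gave 194 to 1179 genes in all, 5 to 9 of the first list and 2 to 10 of the second. The median was 0.046 to 0.19 over the 30 to 33 genes of the first list that were tested. The highest number of all genes came without LN-521 replicate 1, and the lowest, with 2 of the second list, without LN-521+LN-221 replicate 3. None of the genes that changed sign had passed the test. DKK3 was -0.0041 with library size alone and -0.0078 without a filter, RNF43 -0.0030 without a filter and -0.0049 with the length correction, WNT3 -0.097 with limma on log2 CPM, and LRP5 -0.0041 and -0.0042 on TPM. Across the fits without 1 library, WNT3 ranged from -0.68 to 0.48, FZD1 from -0.059 to 0.19, FZD6 from -0.044 to 0.010, FZD9 from -0.050 to 0.19, LRP5 from -0.0049 to 0.14, LRP6 from -0.0016 to 0.10, DKK3 from -0.028 to 0.024 and RNF43 from -0.10 to 0.10. For all of these, the cause was not tested. Without a filter 44 of the 45 listed genes were tested, and none of those described as not measured passed, at counts too low for a precise fold.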
